A study of Mus musculus with 4 samples.

Results

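The 41 genes described here encode the subunits of the proteasome, its activators, an inhibitor and an assembly factor, together with the transcription factor NFE2L1. These genes were chosen with earlier results of these data known, though by no cut on their measured values. They were picked by gene symbol from 26873 genes with a count in at least 1 library. They comprise 14 genes of the 20S core (Psma1 to Psma7 and Psmb1 to Psmb7), 17 of the 19S cap (6 Psmc and 11 Psmd genes), 3 of the immunoproteasome (Psmb8, Psmb9 and Psmb10), 4 activator genes (Psme1 to Psme4), the inhibitor Psmf1, the assembly factor Pomp and Nfe2l1. All 41 were matched, and all 41 were abundant enough to be among the 15643 genes tested.

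Messenger RNA was sequenced from brown adipose tissue, the fat depot that burns fuel to make heat. All libraries were from male mice kept for 12 weeks on a diet of 60% fat and fed ad libitum. In the knockout group (KO 1 and KO 2) ATF4, a transcription factor of the integrated stress response, was lacking in thermogenic adipocytes. The other group was wild type (WT 1 and WT 2). The sources used here do not give the way ATF4 was deleted, the age of the mice or the strain. The name of a library starts with a prefix of unstated meaning, S1 for WT 2 and KO 1 and S2 for WT 1 and KO 2. Since a prefix takes in 1 KO and 1 WT library, the same 4 libraries give both comparisons below, KO against WT and S2 against S1. Group names are the labels' own, and 4 library values in a row follow the order WT 1, WT 2, KO 1, KO 2.

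The proteasome is the protease that degrades ubiquitin-tagged proteins. Its barrel, the 20S core, is built of stacked alpha and beta rings, and the 19S cap recognises the ubiquitin chain, unfolds the substrate and feeds it in. In immune cells and under interferon the 3 catalytic beta subunits can be replaced by the immunoproteasome forms, which favour peptides for MHC class I. NFE2L1 (also called NRF1) is made at the endoplasmic reticulum membrane and is degraded by the proteasome. When proteasome activity falls, it is cut, moves to the nucleus and raises proteasome genes through antioxidant response elements, and in brown fat it is known as a regulator of proteasome supply during thermogenesis.

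Promoter sequence is shown first, because NFE2L1 acts through a short motif that can be read in these windows. RefSeq windows on GRCm38.p6, from 250 bases before to 50 bases after a start, were found for 35 of the 41 members. Both strands were searched for the letters TGACNNNGC, the core of the antioxidant response element. They occurred for 5 of the 35 members (14.3%), Psmb5, Psmb6, Psmc6, Psmd12 and Psme4, and for 14% of all 27025 genes with a window of this length. The share among members was thus close to that among all genes. The stretches below run 5′ to 3′ on the gene's strand, with the match in capitals, and the longer ones end where an annotated exon begins or at the RefSeq start.
Psmb5 (chr14:54618023-54618245, minus strand): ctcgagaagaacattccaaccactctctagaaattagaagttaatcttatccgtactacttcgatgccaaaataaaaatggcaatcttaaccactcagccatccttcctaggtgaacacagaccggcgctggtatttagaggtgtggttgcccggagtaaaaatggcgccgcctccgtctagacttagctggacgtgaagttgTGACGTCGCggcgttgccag
Psmb6 (chr11:70525107-70525356, plus strand): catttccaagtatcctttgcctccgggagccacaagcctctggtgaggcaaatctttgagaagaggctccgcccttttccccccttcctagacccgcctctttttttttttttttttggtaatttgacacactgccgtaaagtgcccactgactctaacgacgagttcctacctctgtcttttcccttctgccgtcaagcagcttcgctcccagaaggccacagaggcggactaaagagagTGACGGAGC
Psmc6 (chr14:45329587-45329615, plus strand): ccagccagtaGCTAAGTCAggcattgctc
Psmd12 (chr11:107479278-107479299, plus strand): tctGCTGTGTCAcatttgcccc
Psme4 (chr11:30771758-30771786, plus strand): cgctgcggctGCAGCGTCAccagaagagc
Psmb5 and Psmb6 encode the chymotrypsin-like and caspase-like catalytic subunits. In their windows the match began 47 and 9 bases before the RefSeq start. The Psme4 stretch lies in an annotated exon.

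Nfe2l1 has 5 RefSeq windows, none with TGACNNNGC. The window of its most upstream start held the letters CCAAT 4 times, each on the opposite strand and so read as ATTGG, and the 4 matches are in capitals below. CCAAT occurred for 13 of the 35 members (37.1%) and 41.1% of all genes.
Nfe2l1 (chr11:96829969-96830218, minus strand): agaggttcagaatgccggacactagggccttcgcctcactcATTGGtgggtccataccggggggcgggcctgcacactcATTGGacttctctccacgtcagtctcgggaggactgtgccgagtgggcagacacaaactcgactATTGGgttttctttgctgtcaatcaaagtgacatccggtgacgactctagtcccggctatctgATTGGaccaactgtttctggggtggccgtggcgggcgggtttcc

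Windows of the immunoproteasome and its activator were searched for the letters of interferon elements. TTCNNNGAA, the gamma-activated site, occurred for Psmb8 and Psmd2, 2 of 35 members (5.71%) against 9.55% of all genes. The core of the interferon-stimulated response element, searched as GAAA followed by any 2 bases and GAAA again, occurred for Psmb3, Psmd4 and Psme1, 3 of 35 (8.57%) against 3.99%. The short stretches around the Psmb8 and Psme1 matches are given because Psmb8 and Psme1 are known as interferon-inducible genes. Both stretches lie in an annotated exon.
Psmb8 (chr17:34198088-34198116, plus strand): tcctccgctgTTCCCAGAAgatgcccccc
Psme1 (chr14:55578493-55578522, plus strand): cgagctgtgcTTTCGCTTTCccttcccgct

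Total estimated counts ran from 25985367 (KO 1) to 34813870 (WT 2), and mitochondrial genes took 33 to 34.1% of the gene counts in 3 libraries and 38.9% in KO 1. The brown adipocyte marker Ucp1 was at 5563 to 7024 CPM (counts relative to the library total, with totals scaled by the TMM method), so brown fat RNA was present in every library. Atf4, the targeted gene, was at 29.2, 106.7, 25 and 24.5 CPM. The library labelled WT 1 therefore lay close to both KO libraries, and Atf4 alone does not separate it from them, so counts for KO against WT are also given without it. Its log2 fold change was -1.46 (SE 0.57, adjusted p = 0.9998 in edgeR's quasi-likelihood test, and 0.1744 with the prefix as a second term). Skeletal muscle markers moved with genotype: the 18 genes summed to 3.38 and 15.7 CPM in WT and 3289 and 3032 CPM in KO. Of the 18, 16 were called higher in KO, where 0.767% of all tested genes were. Macrophage markers summed to 475, 351, 131 and 392 CPM over 15 genes and endothelial markers to 650, 941, 1206 and 718 CPM over 6 genes. The part of these cell markers in any result below was not tested, and in bulk tissue fewer cells of a type cannot be told apart from less RNA per cell.

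As a whole the module was steady. The 41 genes together held 0.296, 0.313, 0.2956 and 0.2949% of the gene counts. Their median coefficient of variation over the 4 libraries was 8.11%, against 17% for all tested genes and 12.1% for the 7429 tested genes with a mean of 10 to 200 CPM. Within that narrow spread the groups of subunits differed in which library was high in CPM. The 20S core summed to 999, 1054, 1174 and 963 CPM, highest in KO 1. The 19S cap summed to 1244, 1156, 1158 and 1218 CPM, higher in both S2 libraries, of which Psmd8 alone held 198.3, 146.2, 146.6 and 185.9 CPM. TPM is the deposited transcript abundance, which takes transcript length into account. In TPM both sums were highest in WT 2, at 1242, 1419, 1370 and 1238 for the core and 899.5, 919.3, 800.7 and 897.1 for the cap. On that scale the summed 19S level was 72.4, 64.8, 58.4 and 72.5% of the summed 20S level.

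Levels per length differed between the groups of subunits, with overlapping ranges. The 20S genes had mean TPM from 30.7 (Psma5) to 167.3 (Psmb4) with a median of 99. Psmb4 stood at the top through short transcripts with a retained intron: its coding transcript was at 38.5, 49.2, 43.7 and 35.6 TPM, the third lowest coding level of the core. On coding transcripts the highest core gene was Psmb3, at a mean of 140.4 TPM, and the core median was 80.4. The 19S genes ran from 25.3 (Psmd1) to 143.3 (Psmd8) with a median of 42.4, or 34.3 on coding transcripts. The immunoproteasome genes were lower, at 8.35 ± 0.64 TPM for Psmb9, 12.8 ± 1.92 for Psmb8 and 36.4 ± 4.61 for Psmb10 (SD over the 4 libraries). Psmf1, the inhibitor that binds the core, had the lowest level over all transcripts, 7.71 ± 0.66 TPM. On coding transcripts it was at 5.78, 6.12, 5.6 and 6.79 TPM and was not the lowest, with Psmb9 at a mean of 5.66.

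**Figure D1:**
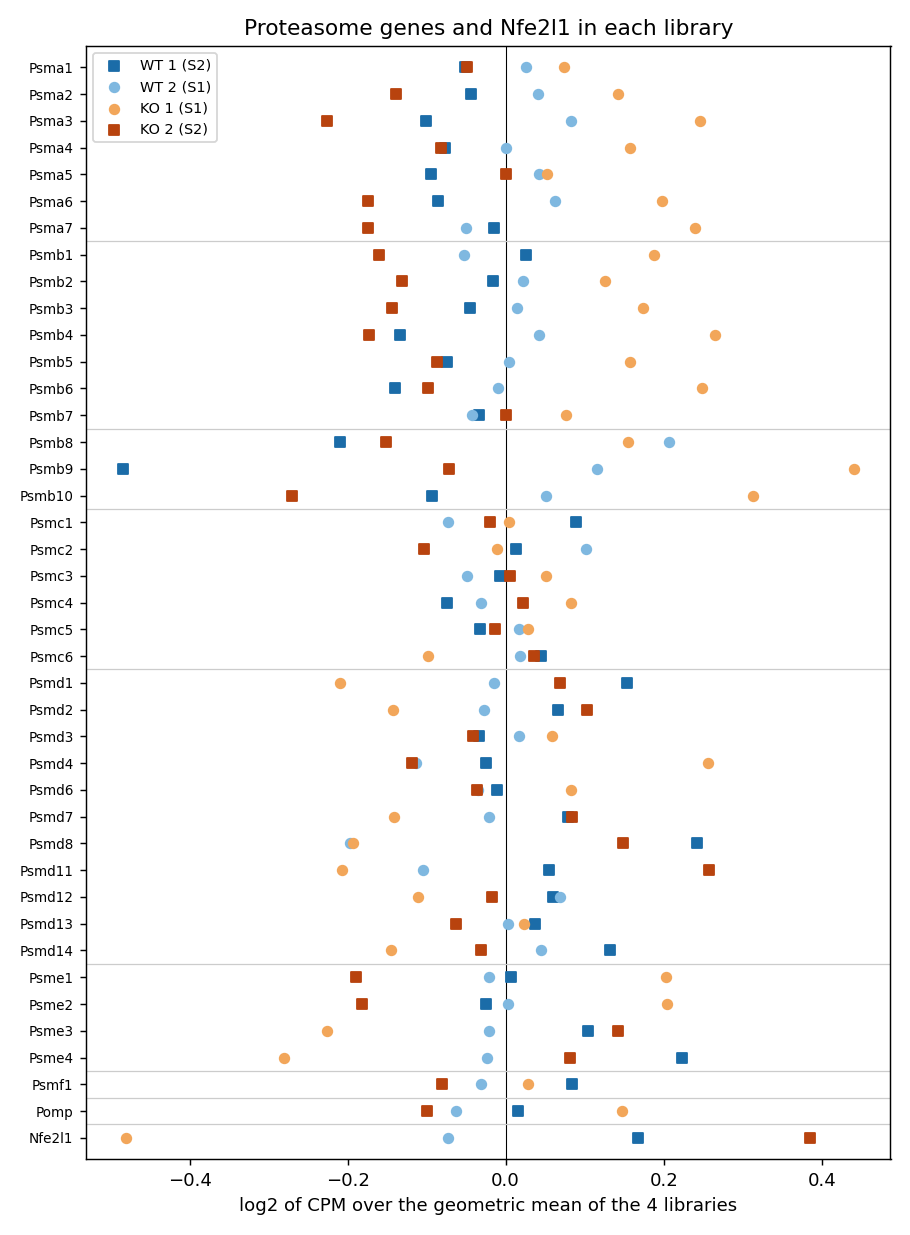
Level of each of the 41 genes in each of the 4 libraries, as log2 of its CPM over its geometric mean of the 4 libraries, ordered by role. The 20S points of KO 1 are the highest of the 4 libraries for all 14 genes, the points of the 19S ATPases (Psmc genes) lie close together, and Nfe2l1 is lowest in KO 1 (289 CPM) and highest in KO 2 (527 CPM).

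No proteasome gene was called between the genotypes. By edgeR's quasi-likelihood test 0 of the 41 genes passed an adjusted p of 0.05, where 122 of 15643 genes (0.78%) did, 120 of them higher in KO. None of the 41 had an unadjusted p under 0.05, against 4.02% of all genes, and 0 were called in DESeq2 (1.39% of all genes) and by limma on log2(TPM + 1) (0.793%). The smallest unadjusted p belonged to Psmb9 (0.2707), and the adjusted p was 0.9998 for every member. Without the library labelled WT 1 the count of members called stayed at 0, with 187 genes called in all.

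The intervals show how large a difference these 4 libraries could hide. For 40 of the 41 genes the 95% interval of the KO over WT log2 fold change lay between -1 and 1, so that a 2-fold difference was outside it; for Psmb9 it reached 1.08. These intervals are not adjusted for the number of genes. The fitted change was within 0.2 of 0 on the log2 scale for 40 of 41 members, against 59.1% of all genes tested. The groups did not overlap for Psmb7, Psmc3 and Psmc4 (higher in KO) and for Psmc2, Psmd12 and Psmd14 (lower in KO), 3 and 3 of 41, where 13.2% of all genes were higher and 13.1% lower without overlap. Differences within S1 and within S2 had the same sign for 14 of the 41 members and for 51.9% of all tested genes.

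**Figure D2:**
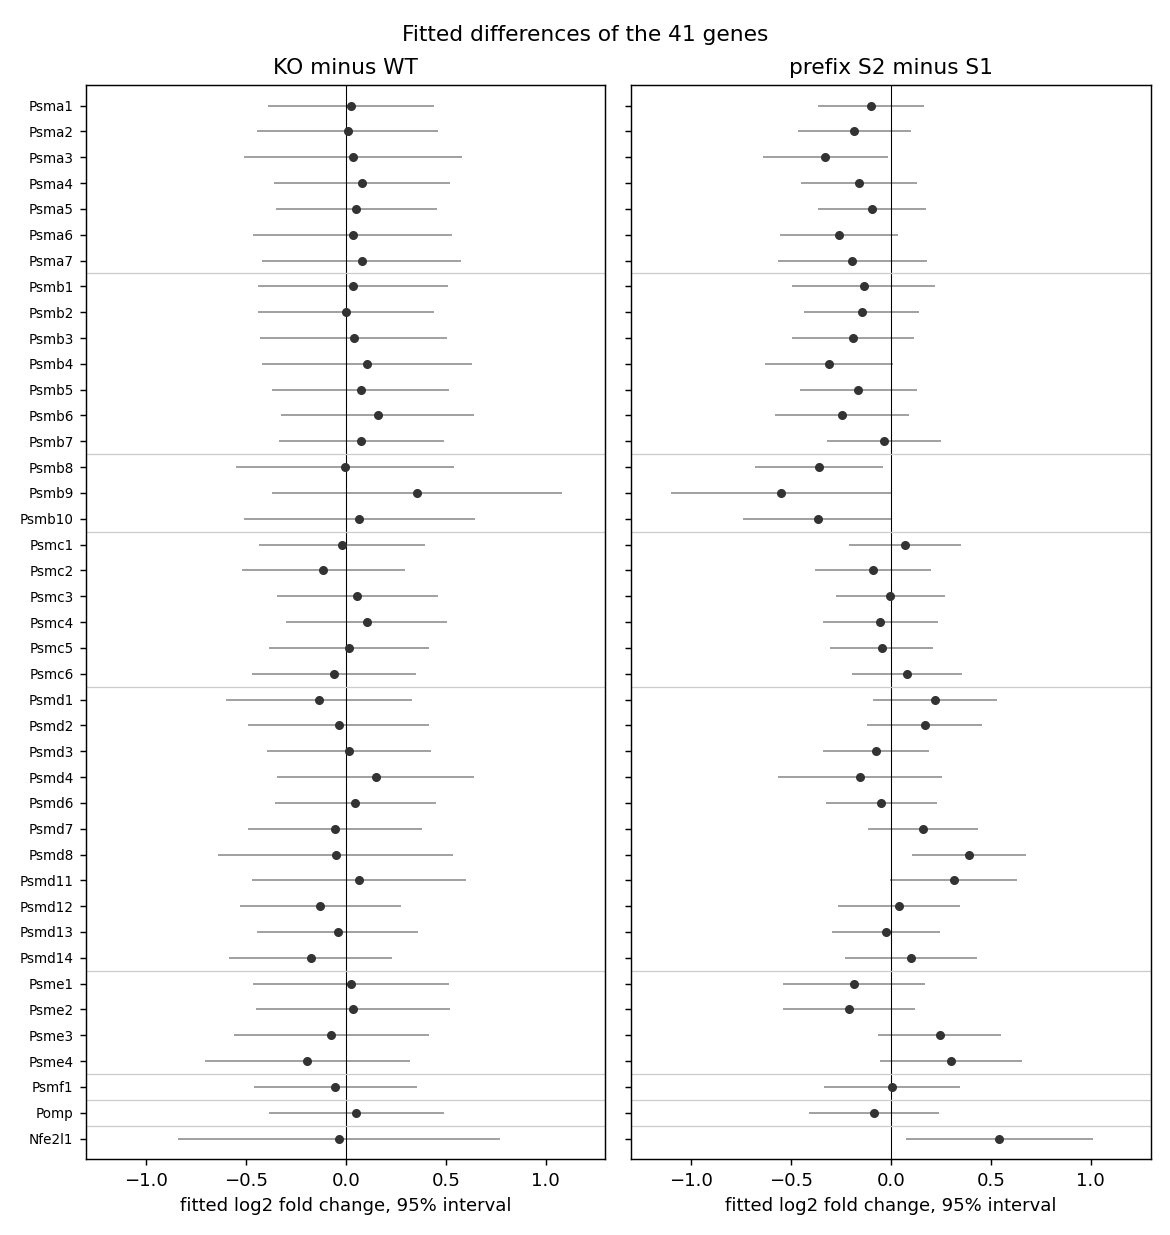
Fitted log2 fold change of each of the 41 genes with its 95% interval, KO over WT in one panel and S2 over S1 in the other, ordered by role. In KO over WT every interval crosses 0, and in S2 over S1 the 20S and immunoproteasome genes lie below 0 and Nfe2l1 and Psmd8 above it.

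Nfe2l1 was among the most abundant genes of the set. Nfe2l1 (ENSMUSG00000038615, chromosome 11, 96817414 to 96829968, minus strand, GRCm38) had 453, 384, 289 and 527 CPM, a level above that of 98.6% of tested genes. KO 2 was the highest and KO 1 the lowest library, so the genotypes overlapped and both WT libraries lay between the KO libraries. Its KO over WT log2 fold change was -0.04 (SE 0.33, 95% interval -0.84 to 0.77, adjusted p = 0.9998). The difference was -0.41 within S1 and 0.22 within S2. Leaving out KO 1 gave 0.33, leaving out KO 2 gave -0.53 and leaving out the library labelled WT 1 gave 0.09, so no direction between the genotypes can be read from these libraries.

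Between the prefixes both S2 libraries were above both S1 libraries for Nfe2l1. Its S2 over S1 log2 fold change was 0.54 (SE 0.18, 95% interval 0.07 to 1.01, unadjusted p = 0.031), and it did not pass the threshold after adjustment (adjusted p = 0.2933 by edgeR's quasi-likelihood test). The adjusted p was 0.1893 with genotype as a second term and 0.098 in DESeq2, and over all the alternatives it ran from 0.0734 to 0.6929. The change itself was 0.35 without KO 1 and 0.76 without WT 2, and 0.80 on log2(TPM + 1). Within WT the log2 difference was 0.24 and within KO it was 0.86, the pair that holds the lowest and the highest library. The macrophage marker sum followed the same order of libraries at its low end, with 131 CPM in KO 1 and 351 to 475 CPM in the others.

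The transcripts of Nfe2l1 were divided differently in KO 1. ENSMUST00000107658, a coding transcript, was estimated at 35.6, 32.5, 7.71 and 60.3 TPM, and the coding ENSMUST00000167110 at 37.5, 35.4, 8.55 and 37.9 TPM. In the opposite order, the coding ENSMUST00000169828 was estimated at 6.03, 13.7, 33.1 and 4.06 TPM, highest in KO 1. A short non-coding transcript of 582 bases, ENSMUST00000135836, was at 42.1, 23.6, 4.67 and 60.6 TPM. Summed over coding transcripts Nfe2l1 was at 108.9, 102.7, 67.1 and 127.7 TPM, so KO 1 was the lowest and KO 2 the highest library here too. These are model-based splits of reads that several transcripts share, chosen for description after their values were seen, and they were not tested.

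**Figure D3:**
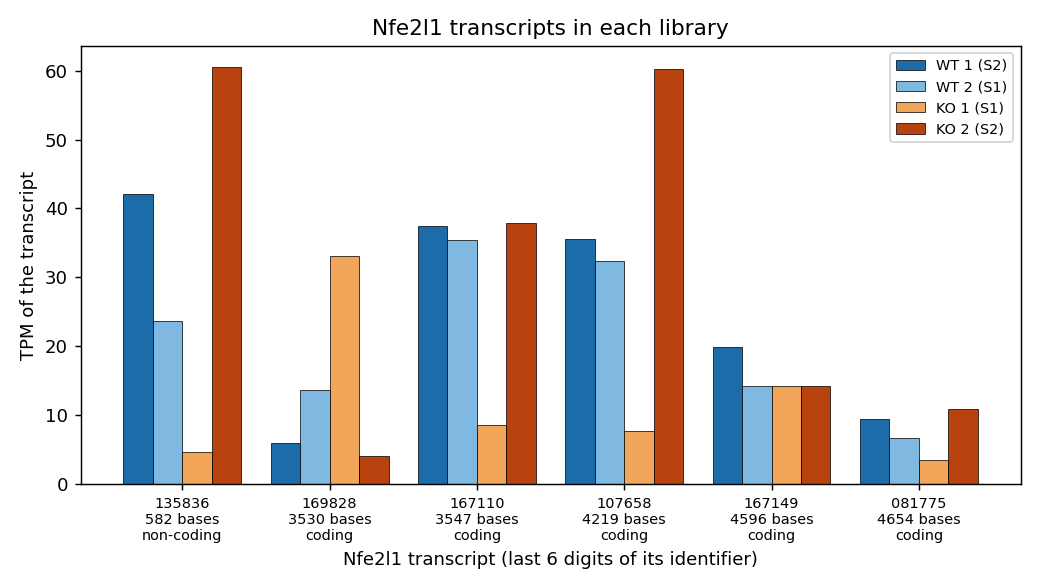
Estimated level (TPM) of the most abundant Nfe2l1 transcripts in each of the 4 libraries. In KO 1 the transcript ENSMUST00000169828 is the highest at 33.1 TPM while ENSMUST00000107658 is at 7.71 TPM, the reverse of the order in the other 3 libraries.

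In CPM the 20S core showed a small shift that followed 1 library. The fitted KO over WT changes of the 14 genes ran from -0.00 to 0.16 with a median of 0.05, 13 of them above 0, where 50.3% of all genes were; on TPM the median was -0.06 with 2 above 0. None was called. In CPM KO 1 was the highest library for 14 of 14 core genes, against 34.3% of tested genes highest in KO 1. In TPM this did not hold: the core summed to 1242, 1419, 1370 and 1238, highest in WT 2. The median KO over WT change was 0.15 within S1 and -0.06 within S2, and it became -0.13 without KO 1 and 0.19 without KO 2.

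Among the core genes Psmb6, the caspase-like subunit, had the highest KO over WT change. It was at 62.7, 68.6, 82.1 and 64.5 CPM, with a log2 fold change of 0.16 (SE 0.20, 95% interval -0.32 to 0.64). KO 1 stood above the rest and KO 2 fell between the WT libraries. Next were Psmb4, a structural beta subunit, at 67, 75.7, 88.3 and 65.2 CPM (0.11, SE 0.21) and the alpha subunit Psma4 at 68.2, 71.9, 80.2 and 67.9 CPM (0.08, SE 0.18). For both genes KO 2 was the lowest library, so the KO pair spanned the WT pair. At the other end Psmb2 was at 59.6, 61.2, 65.7 and 55 CPM, Psma2 at 64, 67.8, 72.8 and 59.9 CPM and Psma1 at 78.3, 82.6, 85.4 and 78.5 CPM, with log2 fold changes of -0.00, 0.01 and 0.03. Psmb7, the trypsin-like subunit, was the one core gene whose genotypes did not overlap, at 108.5 and 107.8 CPM in WT and 117.1 and 111.1 CPM in KO (log2 fold change 0.08, SE 0.17). Psmb5, the chymotrypsin-like subunit, was at 85.2, 89.9, 100 and 84.4 CPM (0.07, SE 0.18), with KO 1 highest and KO 2 lowest.

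In S2 over S1 all 14 core genes had a fitted change below 0, where 51.6% of all genes did. The median was -0.17 (range -0.33 to -0.03), and 11 of the 14 did not overlap between prefixes (25.9% of all genes were non-overlapping and lower). These 11 were thereby also lower within both genotypes. Differences within WT and within KO had the same sign for 29 of the 41 members and for 67.9% of all tested genes. None of the 41 members was called by edgeR in this contrast, which called 1 gene in all (0.00639%). Their fitted changes lay within 0.2 of 0 for 27 of 41, where 40.6% of all genes did. The difference came mostly from the KO pair, with a median of -0.30 within KO and -0.08 within WT, and without KO 1 it was -0.09, with 1 gene above 0. With genotype as a second term 491 genes (3.14%) were called, and in DESeq2 548 (3.5%), again with 0 members.

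The core genes with the lowest S2 over S1 change were Psma3, Psmb4 and Psma6. Psma3, an alpha subunit, was at 84.1, 95.6, 107 and 77.2 CPM and differed by -0.33 on the log2 scale (SE 0.12, 95% interval -0.64 to -0.01, unadjusted p = 0.0433, adjusted p = 0.314). Psmb4 had -0.31 (SE 0.12, adjusted p = 0.3297). Psma6 was at 89.7, 99.3, 109.1 and 84.4 CPM with -0.26 (SE 0.12, adjusted p = 0.3486). For each of these genes both S1 libraries were above both S2 libraries. Nearest to 0 were Psmb7 (-0.03, SE 0.11), Psma5 at 30.9, 34, 34.3 and 33 CPM (-0.09, SE 0.11) and Psma1 (-0.10, SE 0.10). The catalytic subunits Psmb5 and Psmb6 had -0.16 (SE 0.11) and -0.24 (SE 0.13).

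The immunoproteasome genes were low, and none was called. Psmb8 (chromosome 17, 34197721 to 34201454, plus strand), the chymotrypsin-like immune form, was at 10.8, 14.4, 13.9 and 11.2 CPM. Psmb10 (chromosome 8, 105935735 to 105938444, minus strand), the trypsin-like immune form, was at 17.9, 19.8, 23.7 and 15.8 CPM. For both genes the S1 libraries were above the S2 libraries and the genotypes overlapped. Their KO over WT log2 fold changes were -0.01 (SE 0.22) and 0.07 (SE 0.23).

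Psmb9, the immune form that replaces Psmb6, had the highest KO over WT value of the 41 members. Its SE was exceeded among them only by that of Nfe2l1. Psmb9 (chromosome 17, 34181987 to 34187764, minus strand) was at 5.64, 8.55, 10.7 and 7.51 CPM. Its log2 fold change was 0.36 (SE 0.29, 95% interval -0.37 to 1.08, adjusted p = 0.9998). Inside S1 the log2 difference was 0.32 and inside S2 it was 0.41. The library labelled WT 1 was the lowest and KO 1 the highest. Without WT 1 the value was 0.09, without KO 1 0.08, without KO 2 0.59 and without WT 2 0.69, and on TPM it was 0.11.

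Between prefixes all 3 immunoproteasome genes were lower in S2 without overlap, where 25.9% of all genes were. They were thereby also lower within both genotypes. The log2 fold changes were -0.36 for Psmb8 (SE 0.12, 95% interval -0.68 to -0.04, unadjusted p = 0.0336, adjusted p = 0.2997), -0.55 for Psmb9 (SE 0.21, adjusted p = 0.325) and -0.37 for Psmb10 (SE 0.14, adjusted p = 0.3274). With genotype as a second term the lowest adjusted p of the 3 was 0.1296, for Psmb9. Ratios to the constitutive subunits are given in TPM, a different scale from these CPM fits, and were not alike for the 3 pairs. In TPM Psmb8 was 9.24, 11.5, 10.4 and 10% of Psmb5, Psmb9 was 7.28, 7.2, 7.3 and 7.99% of Psmb6, and Psmb10 was 32.2, 33.7, 38.6 and 26.8% of Psmb7. The immune forms made up 14, 14.6, 15.1 and 13% of the summed TPM of the 6 catalytic subunits, highest in KO 1 and lowest in KO 2. On coding transcripts alone that share was 5.61, 5.96, 5.22 and 5.71%, with KO 1 lowest, and Psmb10 was 6.76, 8.8, 8.41 and 6.52% of Psmb7.

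Transcript types qualify the values of all 3 immunoproteasome genes. Coding transcripts held 33 to 42.4% of the Psmb8 counts, and most of the rest was assigned to transcripts with a retained intron. For Psmb10 coding transcripts held 47.4 to 55.5% of the counts and 21 to 26.1% of the TPM, so that its level of 36.4 TPM became 8.46 TPM. For Psmb9 coding transcripts held 82, 56.9, 47.2 and 71.3% of the counts. A transcript marked for nonsense-mediated decay, ENSMUST00000237228, took 4.07, 36.1, 74.4 and 6.68 of the Psmb9 counts. On coding transcripts alone Psmb9 was at 6.61, 4.88, 4 and 7.15 TPM, which puts both S2 libraries above both S1 libraries, the reverse of the order of the gene's counts. This split was looked at after its values were seen and was not tested, and the S2 over S1 change of Psmb9 was -0.12 on log2(TPM + 1). Psmb9 also overlaps Tap1 on the opposite strand, and the sources used here do not give the strand setting of the quantification.

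The 19S cap showed no common direction in either comparison. In KO over WT the 17 genes had a median of -0.04 (range -0.18 to 0.15), 7 above 0 and 10 below. In S2 over S1 the median was 0.04 (range -0.15 to 0.39), 9 above and 8 below, with 6 genes non-overlapping and higher (27.3% of all genes) and 2 non-overlapping and lower. The 6 ATPase genes stayed closest to 0, with S2 over S1 values of -0.09 to 0.08 and a median coefficient of variation of 4.59%. The 11 non-ATPase genes had a median S2 over S1 change of 0.10.

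Psmd8, a lid subunit, had the largest S2 over S1 value of the cap and the smallest unadjusted p of the 41 members. It was at 198.3, 146.2, 146.6 and 185.9 CPM, with both S2 libraries well above both S1 libraries. Its log2 fold change was 0.39 (SE 0.11, 95% interval 0.11 to 0.68, unadjusted p = 0.0169, adjusted p = 0.2846). In DESeq2 the adjusted p was 0.0565. Psmd8, Nfe2l1, Psmb8 and Psma3 were the 4 members with an unadjusted p under 0.05 in this contrast, where 15.5% of all genes had one.

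Psmd11, another lid subunit, was at 53.1, 47.6, 44.3 and 61.2 CPM (S2 over S1 0.31, SE 0.12, adjusted p = 0.3265). Psmd1, the large scaffold subunit of the base, was at 81, 72.1, 63 and 76.4 CPM (0.22, SE 0.12, adjusted p = 0.4153). Both genes were lowest in KO 1, and for both the prefixes did not overlap. The lowest S2 over S1 changes of the cap belonged to Psmd4, a ubiquitin receptor, at 93.7, 88.2, 113.9 and 87.8 CPM (-0.15, SE 0.16), to the ATPase Psmc2 at 53.3, 56.7, 52.5 and 49.2 CPM (-0.09, SE 0.11) and to Psmd3 at 80.2, 83.1, 85.5 and 79.8 CPM (-0.08, SE 0.10). Psmd4 was high in KO 1 alone.

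Between the genotypes the cap genes with the lowest change were Psmd14, Psmd1 and Psmd12. Psmd14, the deubiquitinase of the lid, had 42.6 and 40.1 CPM in the WT libraries and 35.2 and 38.1 CPM in the KO libraries, without overlap (log2 fold change -0.18, SE 0.17, 95% interval -0.59 to 0.23). Psmd12 had 48.8 and 49.1 CPM in WT libraries, 43.3 and 46.2 CPM in KO libraries, also without overlap (-0.13, SE 0.16). Psmd1 had -0.14 (SE 0.19) with overlap. The highest were Psmd4 (0.15, SE 0.20), the ATPase Psmc4 at 65.5 and 67.5 CPM in WT and 73 and 70 CPM in KO (0.11, SE 0.16) and Psmd11 (0.07, SE 0.22). Each of these differences was smaller than its SE or close to it.

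The activators split by complex in S2 over S1. Psme1 and Psme2, which form an interferon-inducible ring, were at 47.2, 46.3, 54 and 41.1 CPM and at 60.7, 61.9, 71.1 and 54.4 CPM, with S2 over S1 changes of -0.18 (SE 0.14) and -0.21 (SE 0.13). Psme3, which forms the nuclear activator, was at 67.8, 62.1, 53.9 and 69.6 CPM (0.24, SE 0.12, adjusted p = 0.3754). Psme4, the large single-chain activator, was at 92.4, 77.9, 65.2 and 83.8 CPM (0.30, SE 0.14, adjusted p = 0.356). In CPM KO 1 was the highest library for Psme1 and Psme2 and the lowest for Psme3 and Psme4. On coding transcripts alone Psme1 was at 52.9, 49.9, 43.3 and 46.4 TPM, lowest in KO 1. Psme2 was there at 87.5, 96.7, 85.3 and 81.2 TPM, highest in WT 2, while Psme3 and Psme4 stayed lowest in KO 1. Without KO 1 the S2 over S1 changes of Psme1 to Psme4 were -0.07, -0.10, 0.15 and 0.18, and without WT 2 they were -0.29, -0.31, 0.35 and 0.43. The KO over WT changes of these 4 genes ran from -0.19 (Psme4, SE 0.21) to 0.04, and that of Psme4 was -0.02 without KO 1, -0.06 without WT 1, -0.31 without WT 2 and -0.39 without KO 2. Psmf1 was at 14.2, 13.1, 13.6 and 12.7 CPM (S2 over S1 0.01, SE 0.13), and Pomp, which helps to assemble the core, at 40.4, 38.3, 44.3 and 37.3 CPM (-0.09, SE 0.13).

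The S2 over S1 values of the members went with transcript length, less closely within the core and within the cap. Over the 41 genes the Pearson correlation of log2 length (the mean over a gene's transcripts, non-coding ones included, weighted by their TPM) with the S2 over S1 log2 fold change was 0.697, with the KO over WT change -0.542, and with the deviation of KO 1 from the mean of the 4 libraries -0.757. Within the core the same correlations were 0.481, -0.478 and -0.497, and within the cap 0.346, -0.261 and -0.485. Over all 15643 tested genes these correlations were 0.093, -0.051 and -0.129. They are across genes, which share the same 4 libraries and are not independent replicates. The core genes are short, with a median of 988 bases against 1354 for the cap and 2275 for all tested genes, and 27 of the 41 members fell in the shortest 25% of tested genes (204 to 1413 bases). Among these the median S2 over S1 change was -0.12 over all 3911 genes and -0.15 over the 27 members, and the median deviation of KO 1 was 0.14 and 0.15. The part of length in the differences between core and cap was not tested.

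**Figure D4:**
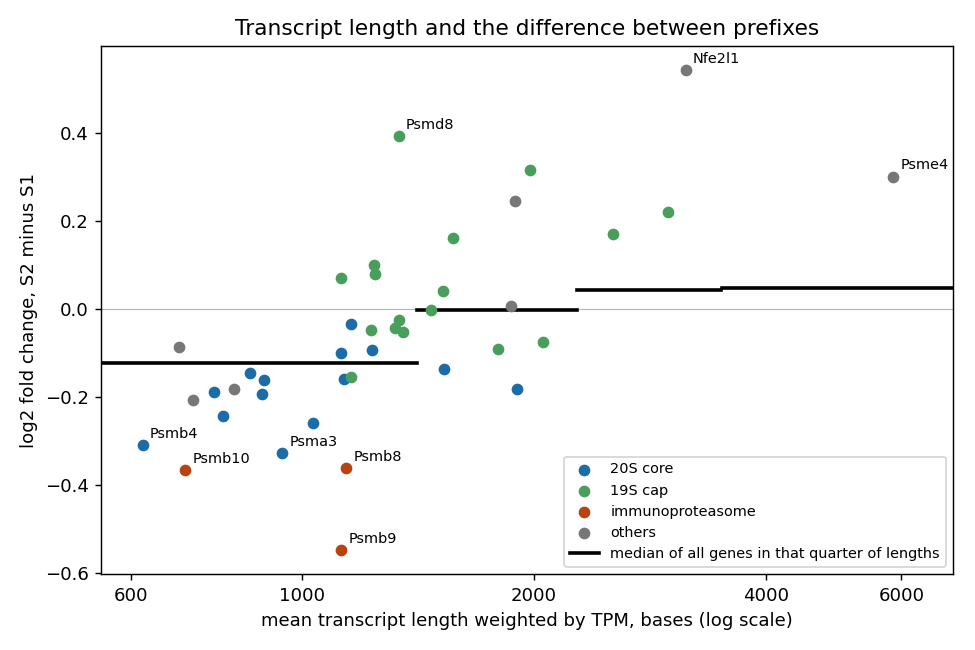
S2 over S1 log2 fold change of each of the 41 genes against its mean transcript length in bases on a log axis, coloured by role, with black lines at the median of all tested genes in each 25% of genes by length. The core genes cluster at short lengths and below 0, and Psme4, at 5861 bases, has 0.30.

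Genes that work with the proteasome were taken from 5 lists of related genes. With genotype as the sole term none of them was called by edgeR, where 0.78% of all genes were. None had an unadjusted p under 0.05, where 4.02% of all genes had one. With the prefix as a second term none was called (2.05% of all genes), and 8.88% of all genes had an unadjusted p under 0.05. So had 4 of 20 interferon-inducible genes, 1 of 15 that process or partner NFE2L1, 1 of 14 ubiquitin genes and none of the other lists. Median KO over WT changes of the 5 lists ran from -0.09 to 0.08. For 14 further proteasome genes (assembly chaperones, deubiquitinases and other regulators) the values with the smallest p were Psmd5 (-0.13), Psmg1 (0.14) and Ecpas (-0.10).

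In S2 over S1 these lists had mixed directions. Among the 14 further proteasome genes 5 were above and 9 below 0 (median -0.06), and the smallest p was that of Usp14, the deubiquitinase bound to the cap, at 44.6, 32.6, 29.9 and 46 CPM (0.54 on the log2 scale, with an SE of 0.11 and an adjusted p of 0.2774). For the same list Psmg2 had -0.43 and Ecpas 0.29. Of 15 genes that process or partner NFE2L1, 12 were above 0 (median 0.17). The smallest p was that of the small MAF partner Mafk, at 22.1, 15.4, 14.2 and 23.2 CPM (0.61, SE 0.11, adjusted p = 0.2774). Ngly1, the enzyme that removes sugars from NFE2L1, had 0.34, and the signal peptide peptidase Hm13 had -0.37. Of 14 genes of ubiquitin and its activating enzymes 10 were above 0 (median 0.21), with Ubqln1 at 0.57, Uba6 at 0.73 and the main E1 enzyme Uba1 at 0.42.

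Interferon-inducible genes are given beside the immunoproteasome because they share inducers. Of 20 tested genes of that list 17 were below 0 in S2 over S1 (median -0.30), where 51.6% of all genes were, and 7 had an unadjusted p under 0.05, where 15.5% had one. None was called with the prefix as the sole term; with genotype as a second term 2 were, where 3.14% of all genes were, Gbp7 at 10.2, 18.6, 19.2 and 9.94 CPM (-0.90, adjusted p = 0.0147) and Rsad2 at 11.5, 20.4, 25 and 14.9 CPM (-0.79, adjusted p = 0.0228). Ifit3 had -0.75 and did not pass. Of 11 genes of MHC class I antigen processing the median was 0.02, and Tap1, the peptide transporter gene beside Psmb9, was at 11.5, 17.6, 20.7 and 12.7 CPM (-0.66, adjusted p = 0.0472 with genotype as a second term). Tap2 and the MHC class I activator Nlrc5 both had -0.46. Cell marker lists went in both directions in S2 over S1. All 6 endothelial markers were below 0 (sums of 941 and 1206 CPM in S1, 650 and 718 in S2). The 4 T and NK cell markers abundant enough to test were also below 0 (median -0.45, from low sums of 1.85, 2.4, 4.3 and 2.54 CPM over 10 genes). So were 4 of the 5 tested B cell markers, with Ighm at 1.22. Of 15 macrophage markers 13 were above 0 (median 0.93). The MHC class II and dendritic list summed to 439, 176, 137 and 366 CPM, higher in both S2 libraries. The part of these cell markers in the immunoproteasome values was not tested.

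Several members share sequence or position with other genes. By gene span Psmb9 overlaps Tap1, Psmb7 overlaps Nek6, Psmc3 overlaps Slc39a13, Psmd13 overlaps Sirt3 and Psme1 overlaps Emc9, each on the opposite strand, while Psma2 overlaps AW209491 and Psmd13 the pseudogene Gm15542 on the same strand. Reads in the shared stretches could have been divided by the quantification. The named pseudogenes of Psmb5, Psmb6 and Psmb7 held 0 to 3 estimated counts in any library.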

How the data were processed

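Messenger RNA of brown adipose tissue was measured in 4 libraries, 2 KO and 2 WT, grouped by the labels' genotype. The library kit was TruSeq mRNA Stranded, per the labels' protocols. The submitters' processing notes name kallisto 0.45.0 and mm10; the transcript set and strand setting were not stated. For each of 141450 transcripts the authors deposited an estimated count and a TPM value in every library, per the file headers. kallisto divides reads that several transcripts share.

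Transcripts were assigned to genes with GENCODE vM21 (GRCm38). In each library 138191 (97.7%) were matched, and the others, which held 0.992 to 1.04% of the counts, were left out. Gene counts are the rounded sums of the deposited estimated counts. TPM was summed per gene without rounding. Total estimated counts were 32714456 (WT 1), 34813870 (WT 2), 25985367 (KO 1) and 30405113 (KO 2).

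Genes were tested with edgeR 4.0.16 (quasi-likelihood test, R 4.3.3) with TMM scaling and filterByExpr (minimum count 10, minimum total 15), fitted on all 15643 genes that passed, once with genotype and once with the prefix as the sole term. P-values were adjusted over those genes by the Benjamini-Hochberg method, with a threshold of 0.05. SE is the fitted change over the square root of its F statistic. Differences within a prefix or a genotype are log2 CPM with a prior count of 2. The scripts were tested on simulated data. The labels do not say whether the libraries come from separate animals, so p-values measure only the spread between these 4 libraries, which may be technical.

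The members, lists and tests were chosen with earlier results of these data known. All 41 members were named, with full values for Nfe2l1, Psmb5 to Psmb10, Psme1 to Psme4, Psmf1, Pomp and the 3 highest and 3 lowest fold changes of the core and of the cap in each contrast. Up to 3 genes of smallest p were named per related list. Paaf1, on 1 list, was not matched. An item of the related lists is not reported here. Groups of genes are described by counts and medians, with no test. The fits were repeated without each library, without mitochondrial genes, without a filter, with a floor of 1 CPM in 2 libraries, with DESeq2 size factors, with genotype and prefix as 2 terms, with a replicate number block, and by DESeq2 1.42.0 and limma 3.58.1 on log2(TPM + 1). The replicate numbers were not taken to pair the libraries, since deviations from the group means correlated at -0.382 for the same number, over 15643 genes. The value for the same prefix, 0.382, is that value with its sign reversed. This follows by construction, because deviations mirror each other with 2 libraries in a group.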

Additional observations from a re-analysis of the deposited data

Results flagged for a closer look

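Some differences between the genotypes had opposite signs within the prefixes, each prefix holding 1 library of each genotype, and these contrasts between prefixes were not tested. For Nfe2l1 the KO minus WT log2 difference was -0.41 within S1 and 0.22 within S2. For the 20S core the median difference was 0.15 within S1, with 14 of 14 genes above 0, and -0.06 within S2, with 4 of 14. For the 19S cap the medians were 0.00 within S1 and -0.02 within S2. The S2 minus S1 median of the cap was 0.04 within WT and -0.02 within KO.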

How the results depend on the processing

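The count of members called was 0 in both contrasts under all 12 alternatives. Counts over all genes moved more. For KO over WT 122 genes became 457 with no filter, 320 with genotype and prefix as 2 terms and 218 in DESeq2, and 78 to 205 with 1 library left out (78 without KO 2, 116 without KO 1, 187 without WT 1, 205 without WT 2). For S2 over S1 1 became 823 with no filter, 491 with the 2 terms and 548 in DESeq2, and 0 or 1 with 1 library left out. With the replicate number as a block 164 genes were called for KO over WT and 0 for S2 over S1; the numbers do not pair the libraries, and the fit with 2 terms is the crossed pairing.

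Medians with 1 library left out ran from -0.13 to 0.19 (20S core) and -0.0706 to -0.0024 (19S cap) for KO over WT, and from 0.004 to 0.0761 (19S cap) and -0.49 to -0.36 (immunoproteasome) for S2 over S1. On log2(TPM + 1) the 19S median of KO over WT was -0.11. Nfe2l1 ran from -0.53 to 0.33 for KO over WT. Other KO over WT values that changed sign with 1 library left out were Psmb6 (-0.0251 to 0.32), Psmb4 (-0.13 to 0.31), Psma4 (-0.0449 to 0.19), Psmb2 (-0.13 to 0.12), Psma2 (-0.14 to 0.14), Psma1 (-0.0365 to 0.0838), Psmd4 (-0.0503 to 0.32), Psmd11 (-0.19 to 0.28), Psmb8 (-0.20 to 0.22), Psmb10 (-0.25 to 0.33) and Psmb5 (-0.0534 to 0.19). For S2 over S1 they were Psmb7 (-0.0928 to 0.026), Psmd4 (-0.33 to 0.0417), Psmf1 (-0.0794 to 0.0836), Pomp (-0.19 to 0.0225) and Psmd12 (-0.0471 to 0.13). On log2(TPM + 1) KO over WT became -0.078 for Psma4, -0.0937 for Psma2, -0.0901 for Psma1, -0.0684 for Psmb10, -0.0439 for Psmb5 and -0.0343 for Psmb7, and S2 over S1 became 0.0052 for Psmb7 and 0.0604 for Pomp. Psmb2, at -0.0002, became 0.0001 with DESeq2 size factors and in DESeq2, 0.001 with no filter and 0.0051 with a minimum of 1 CPM. Psmf1 became -0.0135 with that minimum, and Psmb8 0.002 with the replicate block and 0.0024 with 2 terms. The other member values refitted for S2 over S1 kept their sign with 1 library left out, though sizes moved: Psmb9 ran from -0.77 to -0.36, Psmb10 from -0.49 to -0.23, Psmb4 from -0.42 to -0.20, Psmd11 from 0.21 to 0.41 and Psmd1 from 0.13 to 0.32. None of these values was called, and the cause of the changes was not tested. All 41 members had counts in every library, so no value here rests on a count of 0.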
